A study of Mus musculus with 44 samples.

Results

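The 36 genes described here carry the interferon response and class I antigen presentation: 5 transcription factors and transactivators (Irf1, Irf7, Irf9, Stat2, Nlrc5), 3 RNA sensors (Ddx58, Ifih1, Dhx58), the ISG15 pair (Isg15, Usp18), 14 antiviral effectors, 5 interferon-inducible GTPases and 7 genes of peptide processing and MHC class I. They were chosen by name as rows of a table of raw RNA-seq counts with 19733 genes, and all 36 were found there. The table holds 20 libraries of mouse organoids (stem-cell-derived epithelium grown as hollow structures in matrix) from C57BL/6 mice, in 2 experiments that were kept apart. In the first, gastric organoid lines made with lentivirus expressed GFP, CDX2 or HNF4A, with 3 lines (numbered 1 to 3) for each, beside 2 lines of small intestine organoids (SI) for which no vector is named. Both factors act in intestinal epithelial identity, and GFP is a neutral product. In the second, organoids from the stomach antrum all overexpressed HNF4A, and differed in germline deletion of an enhancer lying 3' of Cdx2: wild type (WT), heterozygous (HET) or homozygous (HOM), with 3 replicates each. Neither the promoter that drives the vectors nor the number of clones or animals behind a line or replicate is given in the sources used here, so the p-values below measure only the spread between these libraries.

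Interferons bind receptors that signal through JAK kinases to STAT proteins. Stat2 and Irf9 belong to the complex that acts at interferon-stimulated response elements, while Irf1 and Irf7 are themselves induced and sustain the response. RNA sensors of the RIG-I family start the interferon response in infected cells, Isg15 is a ubiquitin-like modifier that Usp18 removes, and the MHC class I heavy chains with B2m display peptides that the immunoproteasome (Psmb8, Psmb9) cuts and the Tap1-Tap2 transporter delivers. Intestinal epithelium keeps part of this programme active without infection.

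Stretches near the starts of some of the members described below, not of all, held the element that names the group. The interferon-stimulated response element was searched as GAAANNGAAA on both strands (TTTCNNTTTC on the other) in windows of 300 bases around annotated starts from RefSeq (GRCm38.p6). Of the 29 members with an entry, 16 (55.2%) held it, against 1079 of 27025 genes (3.99%) and 3.44% of all windows of that length. Capitals mark the matches in the 150 bases before the start, printed 5' to 3' on the gene's strand. The genes printed are examples picked by hand. No match was found for Irf7, Irf1, Oasl1, H2-K1 and Irf9, which are also described below. Isg15 (chr4:156200819-156200968 (minus strand)), Ifit1 (chr19:34640739-34640888 (plus strand)) and Bst2 (chr8:71537473-71537622 (minus strand)) were among the genes highest in line 1. Gbp7 (chr3:142530186-142530335 (plus strand)) and Tap1 (chr17:34187406-34187555 (plus strand)) were lower in SI.
Isg15: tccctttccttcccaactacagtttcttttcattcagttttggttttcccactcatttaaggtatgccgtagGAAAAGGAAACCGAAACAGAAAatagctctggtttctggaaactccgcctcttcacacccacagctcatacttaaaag
Ifit1: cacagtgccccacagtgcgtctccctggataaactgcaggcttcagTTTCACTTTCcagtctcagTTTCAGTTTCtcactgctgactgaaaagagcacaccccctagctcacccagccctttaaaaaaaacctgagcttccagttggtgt
Bst2: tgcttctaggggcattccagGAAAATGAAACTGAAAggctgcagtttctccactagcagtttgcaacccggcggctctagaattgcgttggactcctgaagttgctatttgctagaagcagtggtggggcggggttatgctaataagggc
Gbp7: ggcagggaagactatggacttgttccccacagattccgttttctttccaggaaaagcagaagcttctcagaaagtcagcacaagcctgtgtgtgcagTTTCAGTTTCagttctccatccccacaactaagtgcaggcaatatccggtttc
Tap1: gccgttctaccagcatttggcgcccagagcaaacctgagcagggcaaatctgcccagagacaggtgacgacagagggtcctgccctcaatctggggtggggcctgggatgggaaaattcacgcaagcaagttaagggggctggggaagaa
Matches overlapped in Isg15 and Bst2, and the window of Tap1 held none. Psmb9 starts in the opposite direction beside Tap1, its annotated start being at position 34187330 of chromosome 17 on the minus strand and that of Tap1 at 34187556 on the plus strand. The second motif, TTCNNNGAA, was present for 7 of 29 members (24.1%) and for 9.55% of genes.

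Library totals ranged from 6180498 to 11007809 counts in the first experiment and from 8173640 to 11465309 in the second. Levels are given as CPM, the read count scaled to library size with TMM factors within an experiment; 3 counts correspond to 0.256 to 0.473 CPM. Cdx2 was at 3.19 to 7.44 CPM in GFP, 62.0 to 288 in CDX2, 22.6 to 50.7 in HNF4A and 272 to 282 in SI, and Hnf4a at 95.7 to 158 in GFP against 289 to 502 in HNF4A. In the enhancer experiment Cdx2 was at 16.7 to 58.5 CPM in WT, 5.55 to 18.4 in HET and 0.199 to 1.36 in HOM. Summed markers of gastric epithelium were 3671 to 13595 CPM in GFP and 0.373 to 55.9 in SI, and those of fibroblasts were at most 25.4 CPM in the first experiment. Of 15 immune cell markers 7 to 12 were at 0 in every library, Cd68 made up most of their sum and Ptprc was at most 1.09 CPM, while the 9 interferon genes measured summed to at most 1.61 CPM. In bulk RNA, fewer cells of a type and less RNA per cell cannot be told apart.

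Many interferon genes were highest in the gastric libraries numbered line 1 under all 3 constructs. The titles do not say that a number marks the same line in each construct, and a line below means that number. The library of line 1 was the highest of 3 under GFP, CDX2 and HNF4A alike for 15 of 36 members, against 14.4% of the 12720 genes tested, and the lowest for 1 (Stat2), against 14.6%. Those 15 were Irf7, Nlrc5, Isg15, Usp18, Ifit1, Oas3, Oasl1, Oasl2, Bst2, Ifih1, Dhx58, Igtp, Tap1, H2-D1 and B2m. Line 2 was highest for 1 member (background 7.92%) and lowest for 6 (7.74%), and line 3 highest for 4 (19.3%) and lowest for 8 (18.9%). Among 88 further interferon and antigen presentation genes tested, line 1 was highest for 17 and line 3 for 22. Each of these counts describes 3 lines, from gastric organoids that the series' design text calls isogenic.

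Isg15 had 4.48, 0.319 and 0.858 CPM in GFP lines 1, 2 and 3, 4.22, 0.603 and 1.58 in CDX2, and 5.00, 1.13 and 1.63 in HNF4A. The line 1 library was thus 7.62, 3.87 and 3.61 times the mean of the other two, while the 3 line 1 libraries themselves ranged from 4.22 to 5.00 CPM. Irf7, the factor that amplifies type I interferon, was at 18.9, 3.08 and 2.57 CPM in GFP, 55.4, 12.8 and 12.3 in CDX2 and 27.0, 4.87 and 4.08 in HNF4A. Within each construct line 1 was highest and within each line CDX2 was highest, and the GFP library of line 1 lay above the CDX2 libraries of lines 2 and 3. Usp18, the ISG15 protease and receptor inhibitor, was at 4.27, 1.38 and 2.70 CPM in GFP and 2.01, 1.81 and 0.631 in CDX2. Ifit2, which binds viral RNA, ran the other way, at 0.854, 1.17 and 7.60 CPM in GFP, 0.603, 0.603 and 5.21 in CDX2 and 1.16, 1.81 and 8.85 in HNF4A. Line 3 was its highest library under every construct, as it was for Stat2, Ddx58 and Irgm1. Of the members highest in line 1, 7 of the 12 with a RefSeq window held the response element, against 9 of 17 among the other members.

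**Figure D1:**
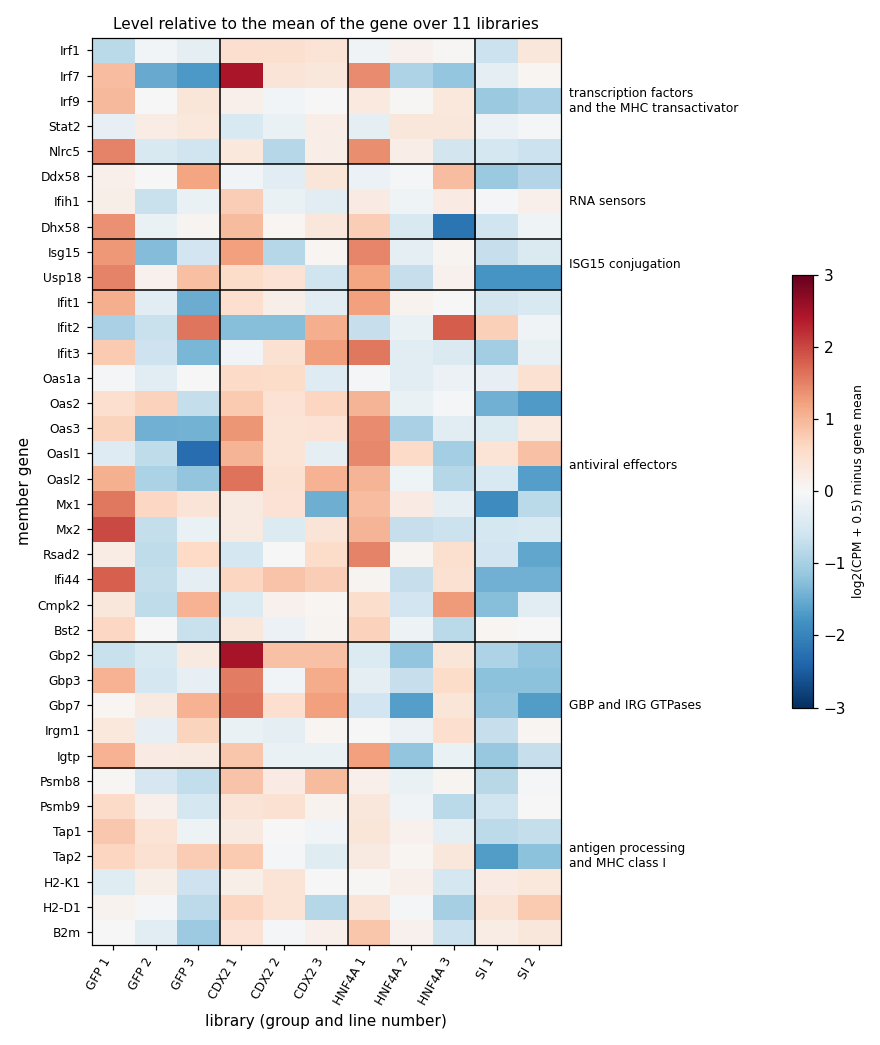
Heat map of the 36 members (vertical axis, by role) in the 11 libraries of the first experiment (horizontal axis), coloured by log2(CPM + 0.5) minus the mean of the gene over the libraries. The first column of GFP, CDX2 and HNF4A is red for many effectors, as for Isg15 at 4.48, 4.22 and 5.00 CPM, and Usp18, Gbp3 and Ifi44 are blue in both SI columns.

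With CDX2 expressed, 4 of 34 members tested rose over GFP with line as a block, where 5.22% of all genes did: Irf7, Oasl1, Irf1 and H2-K1. Markers of cell identity moved with the construct, since the summed gastric markers were 266 to 2533 CPM in CDX2 against 3671 to 13595 in GFP, and the small intestine markers 647 to 1699 against 320 to 408; their part in these changes was not tested. A test that ignores line number called none. Irf1, a factor that drives class I and GTPase genes, was at 24.4, 40.6 and 35.2 CPM in GFP lines 1 to 3 and at 60.6, 60.1 and 57.1 in CDX2. All CDX2 libraries lay above all GFP libraries, with a fold change of 0.83 ± 0.26 on the log2 scale (SE, n = 3 per group) and an adjusted p of 0.229 in edgeR's quasi-likelihood test. With line number as a block it was 0.85 ± 0.15, with an adjusted p of 0.0143 in the same edgeR test. Irf7 was higher in CDX2 than in the GFP library of the same line in every line, by 1.53, 1.89 and 2.06 in log2(CPM + 0.5). Its fold change was 1.71 ± 0.98 (log2, SE, adjusted p 0.583, edgeR) without the block and 1.91 ± 0.19 (adjusted p 0.00195, edgeR) with it. Oasl1, an OAS-like protein that restrains Irf7 translation, was at 10.99, 8.29 and 2.57 CPM in GFP and 30.0, 19.3 and 11.7 in CDX2. Every CDX2 library lay above every GFP library, and the blocked fold change was 1.58 ± 0.25 (log2, SE, adjusted p 0.00963, edgeR) against 1.48 ± 0.65 (adjusted p 0.434) without the block. H2-K1, a class I heavy chain, was at 330, 474 and 273 CPM in GFP and 479, 562 and 415 in CDX2. The groups overlapped, yet each CDX2 library exceeded its own line's GFP library, and the blocked fold change was 0.46 ± 0.12 (log2, SE, adjusted p 0.0483, edgeR), against 0.44 ± 0.25 (adjusted p 0.58) without the block.

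**Figure D2:**
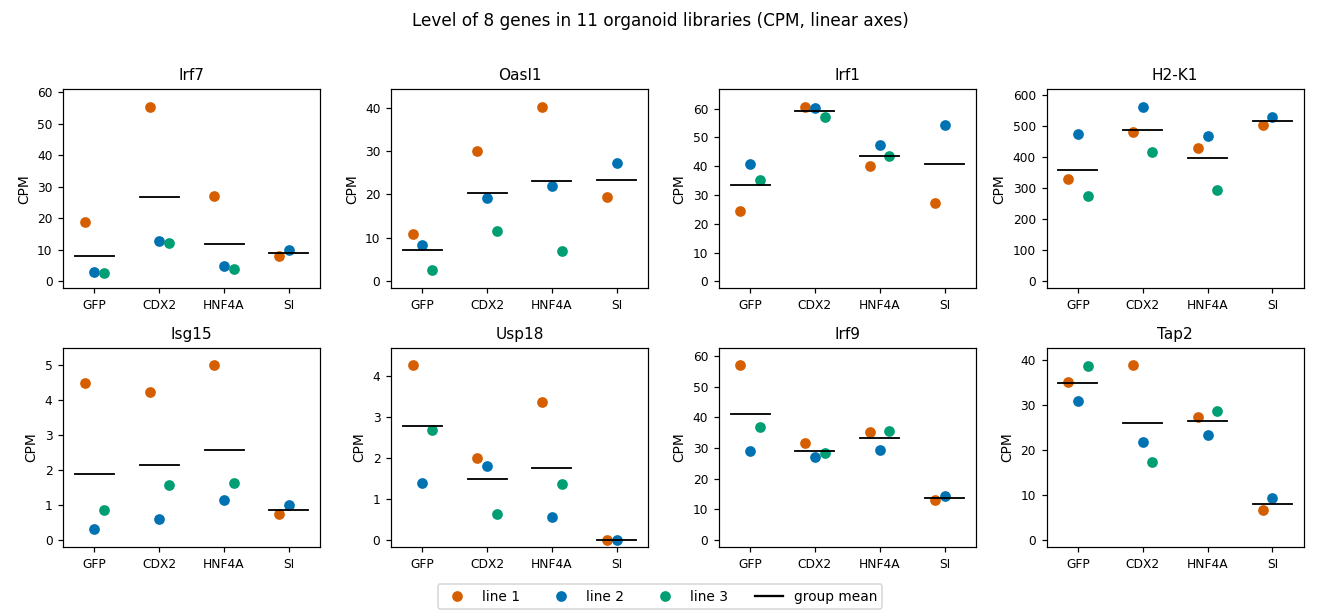
Level (CPM, linear vertical axes) of 8 members in each library of GFP, CDX2, HNF4A and SI organoids (horizontal axis). Points are libraries coloured by line number and bars are group means. Line 1 is highest for Irf7 and Isg15 in all 3 constructs, the CDX2 points for Irf1 lie above all GFP points, and Usp18 is at 0 in both SI libraries.

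Without the block, edgeR called 0 of 36 members higher and 0 lower in CDX2 against GFP, where 0.338% of all genes tested were called higher and 0.0708% lower. At an unadjusted p under 0.05, 4 members were higher and 0 lower, as were 845 and 585 of the 12720 genes, and DESeq2 and limma-voom also called 0 members in either direction. With the block 34 members (all but Mx2 and Nlrc5) were tested over the 9 gastric libraries, of which the 4 named above were called higher and 0 lower, against 5.22% and 4.45% of 12289 genes, while 9 were higher and 4 lower at an unadjusted p under 0.05 (1659 and 1545 of all genes). The median of the members was 0.12 on the log2 scale (0.33 with the block), and that of all genes 0.00. By a count within lines, 11 of 36 members were higher in CDX2 than in GFP in all 3 lines (20.7% of all genes) and 7 were lower (21.7%).

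Other antigen processing genes moved in both directions without passing the test, with or without the block. Counting H2-K1, 5 of the 7 members with that role had a positive and 2 a negative unblocked fold change. Psmb8, a catalytic subunit of the immunoproteasome, was at 3.31, 2.13 and 1.72 CPM in GFP and 6.13, 3.86 and 6.63 in CDX2. Its libraries did not overlap, and the blocked fold change was 1.203 ± 0.36 (log2, SE, adjusted p 0.0734, edgeR). B2m, the light chain, was at 128, 99.4 and 58.7 CPM in GFP and 172, 122 and 140 in CDX2, with a blocked change of 0.68 ± 0.22 (log2, SE, adjusted p 0.106, edgeR). Tap1 and Tap2 were the negative ones, at -0.35 ± 0.26 and -0.42 ± 0.28 (log2, SE, adjusted p 0.694 and 0.665, edgeR), and each was lower in CDX2 than in GFP in 2 of 3 lines. Gbp2, a GTPase that attacks pathogen vacuoles, was at 0.213, 0.319 and 0.858 CPM in GFP and 5.73, 1.57 and 1.58 in CDX2. Its fold change was 2.67 ± 1.08 (log2, SE, adjusted p 0.376, edgeR), and its GFP level was near that of 3 counts. Irf9 was at 57.0, 29.0 and 36.9 CPM in GFP and 31.8, 27.1 and 28.2 in CDX2, a change of -0.49 ± 0.24 (log2, SE, adjusted p 0.479, edgeR).

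Among the other genes of the pathway list, 7 of 85 rose and 6 fell in CDX2 with the block, against 5.22% and 4.45% of all genes, so that the counts themselves lie close to the background. Those that rose included the immunoproteasome genes Psmb10 (0.99 ± 0.20, adjusted p 0.0231) and Psme1 (0.41 ± 0.09, adjusted p 0.032), the interferon gamma receptor chain Ifngr1 (1.01 ± 0.19, adjusted p 0.0174) and the class I genes H2-Q1 and H2-Q2 (4.36 ± 0.52, adjusted p 0.00514), all blocked log2 fold changes with SE from edgeR. H2-Q1 had 1 count in all 3 GFP libraries and 150 in CDX2, a ratio of 164 with a 95% interval from counting error of 29.1 to 6540. Those that fell included Mr1 (-1.40 ± 0.23, adjusted p 0.0103, edgeR), which presents vitamin metabolites to T cells, Stat3 (-0.51 ± 0.12, adjusted p 0.0311) and the class II chaperone gene H2-DMb1 (-1.76 ± 0.40, adjusted p 0.0329). Without the block 0 of 88 were called.

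With HNF4A expressed, 1 of 34 members tested rose over GFP with line as a block, Oasl1, where 1.76% of all genes did. It was at 40.2, 21.97 and 6.94 CPM in HNF4A lines 1 to 3, and each value exceeded the GFP library of its line although the groups overlapped. The blocked fold change was 1.58 ± 0.25 (log2, SE, adjusted p 0.0212, edgeR) and the unblocked one 1.66 ± 0.66 (adjusted p 0.753). B2m, Irf1, Gbp7 and Tap2 did not pass either test, with unblocked changes of 0.64 ± 0.37, 0.39 ± 0.26, -1.13 ± 0.71 and -0.40 ± 0.28 (log2, SE). Without the block edgeR called 0 of 36 members higher and 0 lower (all genes 0.142% and 0%), with 1 higher and 0 lower before adjustment (p under 0.05; 546 and 187 of all genes), and neither DESeq2 nor limma-voom called a member. With the block the counts were 1 and 0 of 34 (all genes 1.76% and 0.48%). Members higher than GFP in all 3 lines numbered 12 (23.5% of all genes) and those lower 8 (24.5%), and the median of the members was 0.06 (log2). Both constructs were set against the same GFP libraries, so their values are given side by side only.

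Irf7 was the one member that separated CDX2 from HNF4A directly. Its level in CDX2 exceeded that in HNF4A in every line (55.4 against 27.0, 12.8 against 4.87 and 12.3 against 4.08 CPM), with a blocked difference of 1.32 ± 0.19 (log2, SE, adjusted p 0.0234, edgeR) and an unblocked one of 1.17 ± 0.96 (adjusted p 1). Oasl1 did not separate them, with a blocked difference of -0.00 ± 0.31. Gbp7, Gbp2, Psmb8, Irf1 and Gbp3 had unblocked differences of 1.89 ± 0.72, 2.78 ± 1.09, 0.77 ± 0.44, 0.44 ± 0.26 and 1.54 ± 0.97 (log2, SE), none past the test. Without the block 0 of 36 members were called higher and 0 lower by edgeR (all genes 0.0157% and 0.00786%), 2 were higher and 0 lower at an unadjusted p under 0.05 (330 and 329 of all genes), and DESeq2 and limma-voom called 0. With it the counts were 1 and 0 of 34 (all genes 0.643% and 0.732%).

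In small intestine organoids 10 of 36 members fell relative to GFP gastric organoids and 0 rose: Irf9, Ddx58, Usp18, Oas2, Mx1, Ifi44, Gbp3, Gbp7, Tap1 and Tap2. Over all genes tested, 12.9% were called lower and 14.2% higher, and without SI line 1 the count of members fell to 1. The gastric lines were made with lentivirus and no vector is named for SI. Tissue and vector therefore cannot be told apart in any comparison with SI. Irf9, the DNA-binding partner of Stat2, was at 13.0 and 14.3 CPM in SI lines 1 and 2 against 29.0 to 57.0 in GFP. The groups did not overlap, and the fold change was -1.58 ± 0.28 (log2, SE, n = 2 and 3, adjusted p 0.00465, edgeR). Its partner Stat2 was at 30.8 and 33.8 CPM in SI and 29.5, 40.8 and 43.5 in GFP, which overlap. Tap2, one chain of the peptide transporter, was at 6.71 and 9.33 CPM in SI against 35.2, 31.0 and 38.7 in GFP, a change of -2.13 ± 0.35 (log2, SE, adjusted p 0.0036, edgeR). Tap1, the other chain, was at 17.1 and 18.1 CPM against 53.2, 40.2 and 27.1, a change of -1.19 ± 0.30 (adjusted p 0.0181, edgeR). Both chains were thus lower in each SI library than in any GFP library.

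Psmb9, which lies head to head with Tap1, was at 3.82 and 6.15 CPM in SI and 9.28, 6.80 and 4.04 in GFP, a change of -0.43 ± 0.48 (log2, SE) that did not pass the test. The groups overlapped, and Psmb8 differed by -0.04 ± 0.50. The class I chains did not fall with the transporter: H2-K1 was at 502 and 528 CPM in SI against 273 to 474 in GFP, a change of 0.52 ± 0.27 (log2, SE, adjusted p 0.176, edgeR). H2-D1 was at 69.5 and 92.2 CPM against 30.6 to 57.2, a change of 0.79 ± 0.47 (adjusted p 0.234), and B2m at 147 and 160 CPM against 58.7 to 128, a change of 0.69 ± 0.40 (adjusted p 0.224). For these 3 genes every SI library lay above every GFP library, though none passed edgeR's test. Groups were apart in this direction for 4 of 36 members and for 30.4% of all genes, whether called or not. H2-K1, H2-D1 and the Q genes are near-identical in places, as are members of the OAS, GBP and IFIT families, and how reads shared between copies were counted is not given, so their split is uncertain.

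Among the others that fell, Usp18, Ifi44, Gbp3 and Oas2 were scarce in every group, at most 4.27 CPM in any library. Usp18 had 0 counts in both SI libraries and 75 over the 3 GFP libraries, so with a floor of 3 counts over the group it was at least 18.4-fold lower in SI. Ifi44 had 0 against 47 counts (at least 11.5-fold lower) and Gbp3, a guanylate-binding protein, 0 against 25 (at least 6.14-fold lower). Oas2, an activator of RNase L, had 1 count in SI and 41 in GFP, a ratio of 30.2 with a 95% interval from counting error of 5.13 to 1220. Their adjusted p-values were 0.00926, 0.0244, 0.0383 and 0.0184 in edgeR. Mx1, an antiviral GTPase, was at 0.466 and 1.54 CPM in SI against 10.2, 5.00 and 4.17 in GFP (log2 change -2.69 ± 0.87, SE, adjusted p 0.0438, edgeR), and Gbp7 at 0.652 and 0.329 against 2.24, 2.66 and 4.90 (-2.68 ± 0.89, adjusted p 0.0484). Ddx58, which encodes the sensor RIG-I, was at 15.3 and 18.2 CPM against 37.9, 34.2 and 77.3, a change of -1.57 ± 0.45 (log2, SE, adjusted p 0.0298, edgeR). Of the other sensors, Ifih1 was at 20.3 and 23.05 CPM in SI and 23.6, 12.9 and 18.01 in GFP, and Dhx58 at 2.61 and 3.84 against 11.7, 3.61 and 4.53, both overlapping. Oasl1 was at 19.4 and 27.2 CPM in SI, above all GFP libraries, with a change of 1.67 ± 0.71 (log2, SE, adjusted p 0.104, edgeR).

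The other effectors and GTPases did not pass in SI against GFP. Rsad2, the antiviral enzyme viperin, was at 2.24 and 0.878 CPM in SI and 4.27, 1.91 and 5.64 in GFP, and Cmpk2, a neighbouring nucleotide kinase gene, at 1.21 and 2.74 against 4.70, 1.91 and 7.96. Both overlapped, with changes of -1.32 ± 0.71 and -1.29 ± 0.75 (log2, SE). Igtp and Gbp2 lay lower in every SI library (-1.83 ± 0.87 and -2.89 ± 1.62) without passing the test. Ifit1, Ifit2, Ifit3, Isg15, Oas1a, Oas3, Oasl2, Mx2, Irgm1, Nlrc5, Bst2, Irf1 and Irf7 overlapped between SI and GFP.

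**Figure D3:**
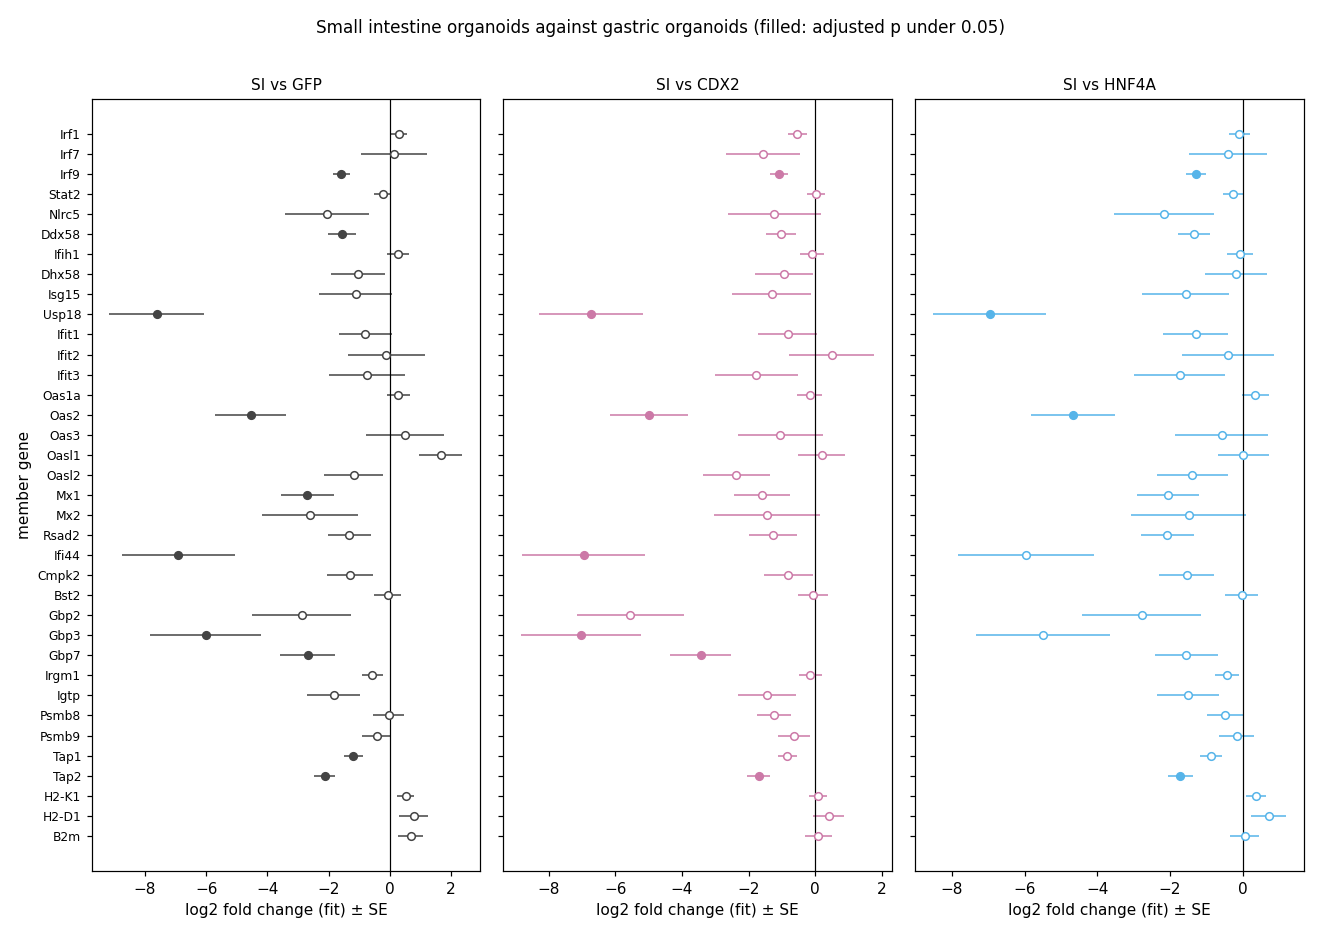
Fitted log2 fold change with SE (horizontal axis) of the 36 members (vertical axis, by role) in SI against GFP, CDX2 and HNF4A gastric organoids. Filled points passed an adjusted p of 0.05 in edgeR: 10, 7 and 4 members, all lower in SI. The fitted values of genes with 0 SI counts (Usp18, Gbp3 and Ifi44) depend on the prior count.

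Of all genes tested, 28.9% lay lower in every SI library than in every GFP library, as 12 of 36 members did. The median member differed by -1.08 and the median gene by -0.01 (log2), a member median that stays where it is with the 3 genes of 0 SI counts at their bounds, which also lie below it. The count of 10 rested on few libraries: without SI line 1 only Tap2 passed, without SI line 2 Tap2, Usp18 and Irf9 did (3 members), and without GFP line 3 there were 6. The share of all genes called in these fits is not given here, so the drop is not particular to the members. Tap2 passed with each GFP or SI library left out. By role, 2 of 7 antigen processing genes, 3 of 14 effectors, 2 of 5 GTPases, 1 of 2 ISG15 genes, 1 of 3 sensors and 1 of 5 factors fell.

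Against CDX2, 7 of 36 members fell in SI (Irf9, Usp18, Oas2, Ifi44, Gbp3, Gbp7 and Tap2) and 0 rose, where 5.67% and 5.63% of all genes were called. Tap2 was at 38.9, 21.8 and 17.4 CPM in CDX2, all above SI, a change of -1.70 ± 0.34 (log2, SE, adjusted p 0.0181, edgeR), and Irf9 changed by -1.09 ± 0.28 (adjusted p 0.0357). Gbp7 was at 7.54, 3.26 and 5.68 CPM in CDX2 and changed by -3.44 ± 0.91 (adjusted p 0.0411). Usp18, Gbp3 and Ifi44 were at least 10.5-, 12.7- and 11.6-fold lower in SI than in CDX2, and the ratio of Oas2 was 40.4 (6.92 to 1630). For 22 of 36 members every SI library lay below every CDX2 library, against 23.6% of all genes, and the median member differed by -1.07 (log2). Fewer members passed with some libraries left out: 0 without SI line 1 and 2 without SI line 2. Those 2 were Tap2 and Irf1, and Irf1 was not among the 7 named above. The count was 1 without CDX2 line 1, 4 without CDX2 line 2 and 1 without CDX2 line 3. It was 4 without HNF4A line 1, which shares the estimate of spread, and with other libraries left out it reached at most 7. These counts, too, stand without the share of all genes called in the same fits.

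Against HNF4A, 4 of 36 members fell in SI (Irf9, Usp18, Oas2 and Tap2) and 0 rose, where 6.64% and 5.83% of all genes were called. Tap2 was at 27.3, 23.4 and 28.7 CPM in HNF4A (change -1.72 ± 0.34, log2, SE, adjusted p 0.0171, edgeR) and Irf9 at 35.2, 29.3 and 35.7 (-1.29 ± 0.28, adjusted p 0.021). Usp18 was at least 11.7-fold lower and the ratio of Oas2 was 32 (5.43 to 1300). Ifi44, at least 5.61-fold lower, did not pass (adjusted p 0.0674). For 12 of 36 members the SI libraries lay below all HNF4A libraries (24.3% of all genes), and the median member differed by -1.29 (log2). With a library left out the count was 0 without SI line 1, 1 without SI line 2, 2 without HNF4A line 2 and 1 without HNF4A line 3. The share of all genes called in those fits is again not given here. All 3 comparisons share the SI libraries.

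The wider pathway list showed members of both directions in SI: 18 of 88 genes fell and 8 rose relative to GFP, against 12.9% and 14.2% of all genes. Mr1 fell furthest, at 0.279 and 0.439 CPM in SI against 24.9, 26.7 and 36.6 in GFP (log2 change -6.32 ± 0.76, SE, adjusted p 0.00106, edgeR), and it was also lower than in CDX2 (-5.06 ± 0.74) and HNF4A (-5.10 ± 0.74). Tmem173, which encodes the DNA-sensing adaptor STING, was at 7.54 and 13.5 CPM against 85.4 to 109, a change of -3.22 ± 0.33 (adjusted p 0.000557). Ifitm3, which blocks viral entry, changed by -3.79 ± 0.80 (adjusted p 0.00909), and the sensor gene Zbp1 had 2 counts in SI against 33 in GFP. Gbp9 had 3 counts in SI and 132 in GFP, a ratio of 32.4 (95% counting interval 10.9 to 159). The class II chaperone gene H2-DMb1 changed by -3.37 ± 0.66 (adjusted p 0.00678). Of those that rose, H2-Q1 had 215 counts in SI and 1 in GFP, and H2-Q2 and H2-Q10 changed by 3.71 ± 1.07 and 4.56 ± 1.28 (log2, SE, adjusted p 0.0298 and 0.0263, edgeR). H2-Q2 was at 0.245 to 3.93 CPM in GFP, 15.8 to 95.6 in CDX2 and 30.8 to 31.9 in SI, so that SI lay within the CDX2 range. Relative to CDX2, 12 of 88 fell and 3 rose (5.67% and 5.63% of all genes), and relative to HNF4A 13 fell and 2 rose (6.64% and 5.83%). STING's gene Tmem173 fell against both (-3.04 ± 0.33 and -2.61 ± 0.32, log2, SE), as did Ifitm3 (-2.89 ± 0.76 and -2.72 ± 0.76), the guanylate-binding protein gene Gbp8 (-3.10 ± 0.73 and -3.50 ± 0.74) and the GTPase gene Irgm2 (-2.02 ± 0.52 and -2.59 ± 0.53). Parp14 (-2.11 ± 0.49) fell against CDX2, and Slfn2 (-2.74 ± 0.78) and Socs3 (-2.37 ± 0.51), a feedback inhibitor of cytokine signalling, against HNF4A.

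In the enhancer experiment 32 of 36 members had enough counts to test, the exceptions being Oas2, Mx2, Gbp2 and Gbp3, and no member passed in any comparison. The libraries also differ in markers of other cells: summed markers of fibroblasts were 7.00 to 9.51 CPM in WT, 164, 1451 and 2063 in HET replicates 1, 2 and 3, and 55.9, 170 and 1774 in HOM. Not all of the 15 markers took part. Lum was at 0 in every library, and Dcn, Acta2, Fap and Thy1 were at most 0.427 CPM in HET and HOM. The summed transcripts of Wnt3a, Rspo3 and Nog, growth factors that feeder cells for organoid culture can supply, were 2.77 to 4.71 CPM in WT and 102 to 3242 in HET and HOM. The part of these cells in the values below was not tested, except by leaving out HET replicates 2 and 3 and HOM replicate 3. With those left out, HET rests on replicate 1 alone, so its values there have no replicate. HET replicate 1 and HOM replicate 2 still held 164 and 170 CPM of fibroblast markers, against at most 9.51 in WT.

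Nlrc5, the transactivator of MHC class I genes, was at 0.270, 0 and 0.764 CPM in WT replicates 1, 2 and 3, 0.943, 4.44 and 4.65 in HET and 0, 1.27 and 3.98 in HOM. Its high libraries were the 3 with the most fibroblast transcripts, all HET libraries lay above WT, and the change in HET was 3.26 ± 1.42 (log2, SE, n = 3 per group, adjusted p 0.558, edgeR). With those 3 libraries left out it was 1.45. Bst2, which tethers virions to the cell, was at 28.1, 18.7 and 22.9 CPM in WT, 27.0, 44.1 and 44.4 in HET and 21.8, 28.8 and 35.4 in HOM. HET replicates 2 and 3 stood above every WT library and replicate 1 did not, with a change of 0.73 ± 0.26 (adjusted p 0.488), or 0.22 without the 3 libraries. Isg15 was at 1.08, 0.361 and 1.40 CPM in WT, 1.26, 4.27 and 4.20 in HET and 1.19, 1.66 and 0.585 in HOM. Its change in HET was 1.76 ± 0.70 (adjusted p 0.53), or 0.40 without the 3 libraries, and HOM replicate 3, rich in fibroblast transcripts, was its lowest HOM library.

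Tap1 was at 22.5, 20.7 and 21.5 CPM in WT, 36.1, 23.5 and 33.5 in HET and 22.2, 25.0 and 35.1 in HOM. All HET libraries lay above WT, with a change of 0.52 ± 0.22 (log2, SE, adjusted p 0.554, edgeR), and the value without the 3 fibroblast-rich libraries was 0.74. Stat2 was at 22.3, 19.0 and 32.8 CPM in WT and 34.2, 33.3 and 42.8 in HET, also without overlap (0.57 ± 0.27, adjusted p 0.575). Ifi44 changed by 2.11 ± 0.88 (adjusted p 0.546) in HET, but by -0.21 without those libraries.

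**Figure D4:**
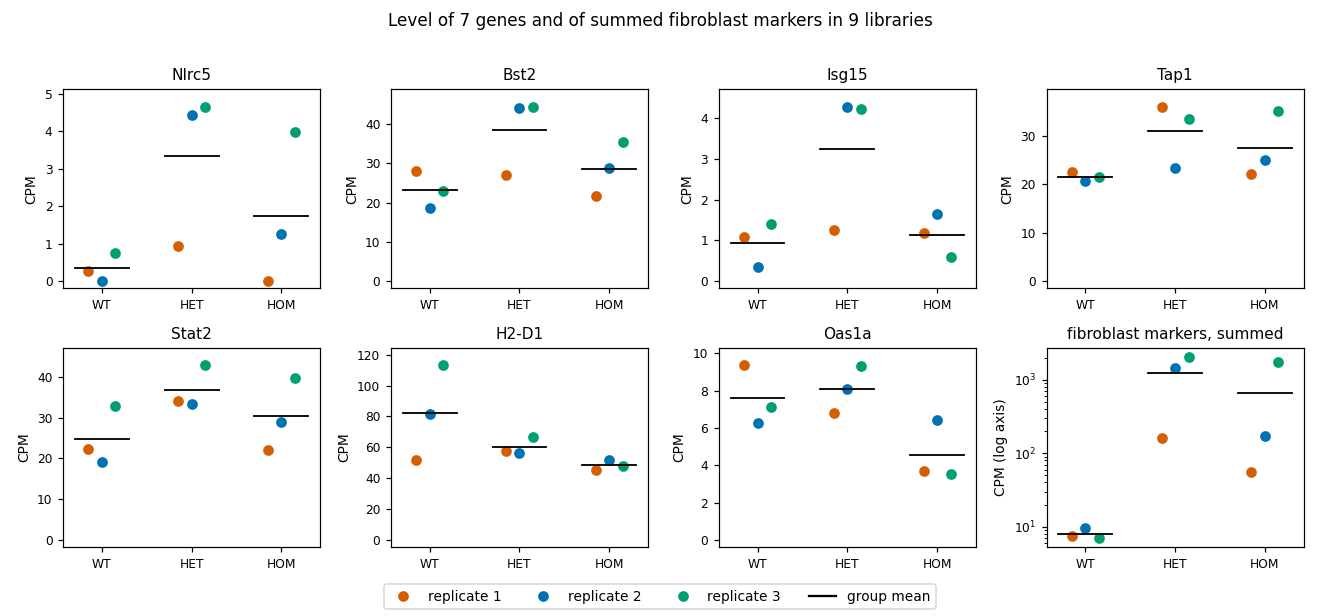
Level (CPM, linear vertical axes) of 7 members in each WT, HET and HOM library (horizontal axis), and in the last panel the summed level of 15 fibroblast markers on a log axis. Points are libraries coloured by replicate number and bars are group means. Nlrc5 is highest in HET replicates 2 and 3 and HOM replicate 3, which also hold 1451 to 2063 CPM of fibroblast markers.

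Of the 32 members tested in HET against WT, 0 were called higher and 0 lower by edgeR, as were 0% of all 12593 genes. At an unadjusted p under 0.05, 5 were higher (Nlrc5, Isg15, Ifi44, Bst2 and Tap1) and 0 lower, of 838 and 287 among all genes. DESeq2 called 313 genes higher and 14 lower, none of them a member, and limma-voom called 0 members. The fold change was positive for 22 of 32 members and for 6228 of all 12593 genes. The median was 0.24 for the members against -0.00 for all genes, and 0.07 for the members without the 3 fibroblast-rich libraries. Every HET library lay above every WT library for 3 members (8.76% of all genes) and below for 0 (6.15%).

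In HOM against WT the members were split evenly, 16 positive and 16 negative, with a median of -0.04 (log2). H2-D1 was at 51.9, 81.8 and 113 CPM in WT and 45.4, 52.1 and 48.1 in HOM, a change of -0.76 ± 0.25 (log2, SE, adjusted p 0.877, edgeR) that was -0.75 without the 3 libraries. The groups overlapped, as HOM replicate 2 exceeded WT replicate 1. Irf1 was at 43.6, 46.9 and 58.3 CPM in WT and 34.3, 35.5 and 39.9 in HOM, without overlap, a change of -0.44 ± 0.20 (adjusted p 0.999). Oas1a was at 9.35, 6.26 and 7.13 CPM in WT and 3.68, 6.43 and 3.51 in HOM (-0.74 ± 0.34, adjusted p 0.999). Oasl1 was at 6.93, 8.66 and 44.3 CPM in WT and 5.37, 9.16 and 10.5 in HOM, a change of -1.25 ± 0.66 that rested on WT replicate 3 and was 0.10 without it. Irf7 was at 5.76, 7.70 and 10.2 CPM in WT and 3.48, 4.38 and 6.09 in HOM, overlapping (-0.76 ± 0.45, adjusted p 0.999), and Nlrc5 changed by 2.32 ± 1.42. Again 0 members were called higher and 0 lower by edgeR (0% of all genes each), 0 were higher and 1 lower at an unadjusted p under 0.05 (398 and 180 of all genes). DESeq2 called 148 genes higher and 32 lower, none of them a member, and limma-voom called 0 members. All HOM libraries lay above all WT libraries for 0 members (4.73% of all genes) and below for 2, Irf1 and Ifih1 (4.17%).

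Between HOM and HET, 29 of 32 members had a negative fold change, as did 6715 of all 12593 genes. The median was -0.44 for the members against -0.01 for all genes (log2), and -0.30 for the members without the 3 fibroblast-rich libraries. Oas1a was the nearest to the threshold, at 6.81, 8.11 and 9.31 CPM in HET and 3.68, 6.43 and 3.51 in HOM, a change of -0.83 ± 0.34 (SE, adjusted p 1, edgeR) without overlap. Isg15 changed by -1.48 ± 0.68, and by 0.19 without those libraries. Irf7 (-0.87 ± 0.45), Oas3 (-1.91 ± 1.00) and Dhx58 (-0.97 ± 0.54) did not pass. No member was called by edgeR in either direction (0 higher and 0 lower, 0% of all genes each), 1 was lower and 0 higher at an unadjusted p under 0.05 (22 and 11 of all genes), and DESeq2 and limma-voom called 0. Lower without overlap were 4 members, Oas1a, Gbp7, Psmb9 and H2-D1 (1.16% of all genes), and higher 0 (0.786%). HET and HOM libraries of one number deviated together (r 0.22 to 0.53 over genes), but HET replicate 2 with HOM replicate 3 reached 0.19. A fit with replicate number as a block called 0 members in this experiment.

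**Figure D5:**
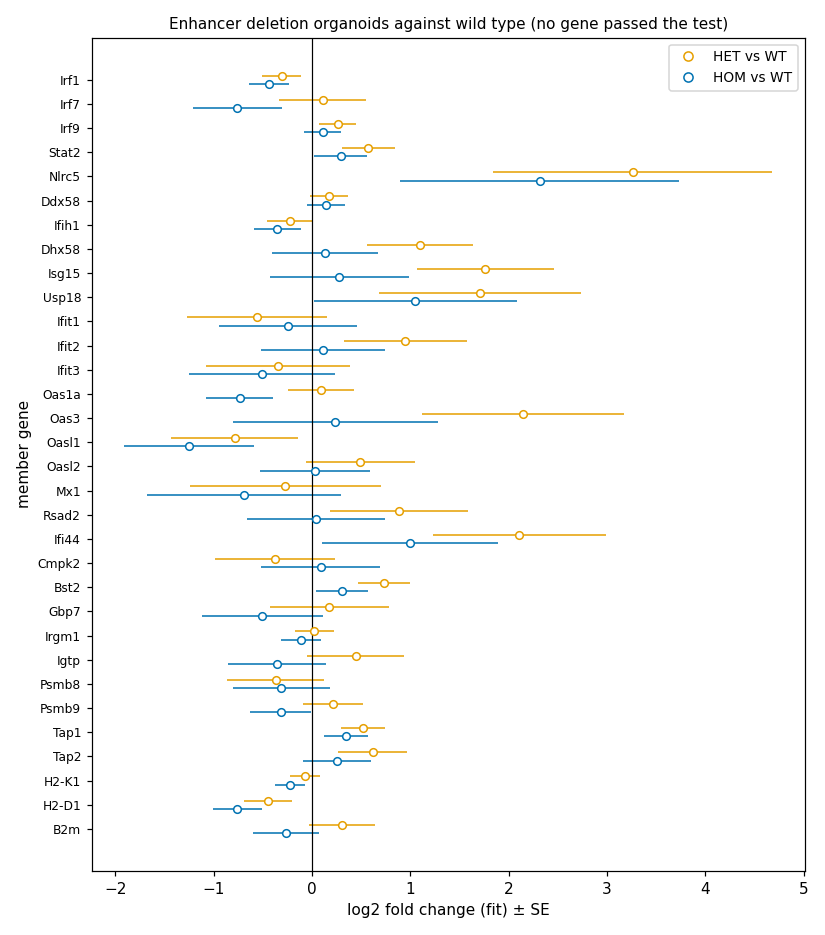
Fitted log2 fold change with SE (horizontal axis) of the 32 members tested (vertical axis, by role) in HET and HOM against WT. All points are open, since none passed edgeR's test, and 22 HET points and 16 HOM points lie above 0.

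In the wider pathway list 0 of 86 genes were called in each comparison of the enhancer experiment, with 5 higher and 5 lower at an unadjusted p under 0.05 in HET against WT, and 0 higher and 3 lower in HOM against WT. Its median was -0.05 in HET against WT and -0.08 in HOM against HET (log2), beside 0.24 and -0.44 for the members. Zbp1, a sensor of Z-form nucleic acid, was at 1.26, 1.56 and 0.509 CPM in WT, 1.78, 11.3 and 17.4 in HET and 1.19, 3.41 and 10.2 in HOM. Its 3 high libraries were those that were high for Nlrc5 and rich in fibroblast transcripts.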

How the data were processed

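RNA was extracted from organoids freed of matrix, and poly-A libraries were sequenced as paired 150-base reads, per the labels' protocols. Values are the authors' deposited raw counts per gene, one column per library. STAR and mm10 are in the submitters' processing notes, which for the first experiment also list Bowtie2, Cell Ranger and hg19 with no role; no source used here names the counting tool, annotation, strand setting or treatment of shared reads. Libraries were grouped by title; for gastric lines the source name says small intestine, and the title and tissue tag were followed. No column was left unused.

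Each experiment was fitted alone with edgeR 4.0.16 (R 4.3.3; filterByExpr with a minimum count of 10, TMM, quasi-likelihood F test, robust), with all groups sharing 1 estimate of spread and Benjamini-Hochberg adjustment over all genes tested (12720 and 12593). An adjusted p under 0.05 counts as called. SE is the fold change divided by the root of F. Intervals and floors cover counting error only. The fits were tested on simulated counts. Replicates of a group differed by more than sampling noise (chi-square per degree of freedom at least 22.56). Same-numbered gastric libraries deviated together (9 pairs, r 0.35 to 0.77 over genes), so numbers were taken to pair them. The 3 same-numbered HET with HOM pairs deviated together too (0.22 to 0.53), while pairs with SI (-0.12 to 0.12) or WT (-0.31 to 0.25) did not. In the enhancer experiment pairs of unlike number reached 0.45 (WT replicate 1 with HET replicate 2), so pairing by number is uncertain there. Alternatives were DESeq2 1.42.0, limma-voom 3.58.1, other scalings, no filter, the block, each replicate left out, and the 3 libraries richest in fibroblast markers left out. Per comparison, all called members were named, filled up to 5 by smallest p, with up to 8 called pathway genes by size of change; other members are examples of a role, and Tmem173, Mr1 beside other groups, Zbp1 in the enhancer experiment and the pathway genes of the blocked fit were chosen after their values were seen. Members and lists were chosen with earlier results of these data known. Gene names matched RefSeq (GRCm38.p6) for 36 of 36 members.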

Additional observations from a re-analysis of the deposited data

Results flagged for a closer look

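Irf7 differed between the CDX2 and HNF4A effects in the fit with line number as a block, where its change over GFP was 1.32 larger with CDX2 (log2, SE 0.19, adjusted p 0.0234, edgeR), in the same direction in 3 of 3 lines. Without the block the difference was 1.17 ± 0.96 with an adjusted p of 1.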

How the results depend on the processing

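Counts of members called kept within 1.5 times under other size factors, library totals only and no low-count filter. With the replicate block by line number, members called higher were 4 in CDX2 against GFP, 1 in HNF4A against GFP, 1 in CDX2 against HNF4A, 2 in SI against GFP and 1 in SI against CDX2, and those lower were 11 in SI against CDX2 and 9 in SI against HNF4A, although SI numbers do not pair with gastric ones. Calls over all genes rose too, to 641, 216, 79, 2635 and 1493 higher, from 43, 18, 2, 1806 and 716 without the block. Genes called lower rose to 1449 and 1510 in SI against CDX2 and HNF4A, from 721 and 844. The block changed no other count of called members by over 1.5 times. With limma-voom 6, 2 and 2 members were lower in SI against GFP, CDX2 and HNF4A, as were 1483, 537 and 635 of all genes. With DESeq2 9 members were lower in SI against HNF4A, as were 1553 of all genes. Leaving out each replicate in turn gave 1 to 10, 0 to 7 and 0 to 6 members lower in SI against GFP, CDX2 and HNF4A, lowest without SI line 1. The share of all genes called in those fits is not given here. Among single genes, medians of the members and counts of all genes called, 1430 values stayed the same, 186 lost a call, 5 gained one, 103 moved and 3 reversed. A gene stayed the same if it kept direction and side of the threshold, and a count if it kept within 1.5 times. A median did so if it moved by less than the SD between libraries of a group. The reversed ones, none of them called, were Oasl1 in HOM against WT without WT replicate 3 (0.10; from -1.66 to 0.10 with each replicate left out), Ifi44 in HET against WT (-0.21) and Isg15 in HOM against HET (0.19), both without the 3 fibroblast-rich libraries. The cause was not tested. Of the members, 4 of 36 could not be tested in the enhancer experiment for want of counts. Over all genes, DESeq2 called more than edgeR, higher and lower: 348 and 145 against 43 and 9 in CDX2 against GFP, 197 and 24 against 18 and 0 in HNF4A against GFP, 62 and 77 against 2 and 1 in CDX2 against HNF4A, 1208 and 1467 against 716 and 721 in SI against CDX2, and 1238 and 1553 against 741 and 844 in SI against HNF4A.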
